A study of Mus musculus with 6 samples.

Results

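The genes described here are the receptors and first signalling proteins with which a cell receives type I and type II interferon: the receptor chains Ifnar1, Ifnar2, Ifngr1 and Ifngr2, the Janus kinases Jak1 and Tyk2, the transcription factors Stat2 and Stat3, and the feedback inhibitor Socs1. Members were taken by gene symbol, 1 probe set per gene, and 9 of 9 listed genes were found among 22180 named genes. Other STATs and Janus kinases are given only as pathway context. Expression was measured on 6 Affymetrix arrays of megakaryocyte-erythroid progenitors (MEP), bone marrow precursors of megakaryocytes and red cells. All mice were of the C57BL/6 strain; 3 arrays are T-bet knockout and 3 are wild type. MEP were stained with antibodies and flow-sorted from fresh whole bone marrow. T-bet, the product of Tbx21, is a transcription factor of T helper 1 and natural killer cells that switches on Ifng. The sources used here do not give the knockout allele, the sort antibodies or the age of the mice, and no interferon or other agent is named for either group.

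Type I interferons bind a receptor of the chains Ifnar1 and Ifnar2, which carry the kinases Tyk2 and Jak1. The kinases phosphorylate Stat2, which works with Irf9 in ISGF3, a complex that binds interferon-stimulated response elements (ISRE). Interferon-gamma binds Ifngr1 and Ifngr2, which carry Jak1 and Jak2, and acts at gamma-activated sites (GAS). Socs1 blocks the kinases and closes the loop. Interferon is known to act on blood stem cells and their progeny, and long exposure can hold back red cell and platelet production.

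Values are log2 signals, so a difference of 1 is a doubling, and ± gives the SD within a group (n = 3). Array medians lay between 6.44 and 6.53. Arrays of a group correlated at r = 0.980 to 0.987 across probe sets, and arrays of different groups at 0.982 to 0.987. Tbx21 read 6.49 ± 0.10 in the knockout group against 6.58 ± 0.04 in the wild-type group, and the exact permutation test gave p = 0.3. It did not separate the groups, and which exons its probe set covers is not known here. The labels call the arrays single mice, yet knockout replicates 1 and 2 and wild-type replicate 1 carried both the female transcript Xist and Y-linked signal. Their Xist read 11.79 to 11.83 and their Eif2s3y 8.39 to 8.86. Both replicates numbered 3 carried only the Y-linked signal, and wild-type replicate 2 only Xist, so p-values measure the spread between these 6 RNA samples. Of 15 measured markers of the megakaryocyte-erythroid lineage 0 lay in the dimmest 30% of probe sets. Among them the platelet-lineage gene Itga2b was lower in the knockout with groups that did not overlap, where 5.18% of all genes separated downward. Its difference was -0.34 (SE 0.14, limma unadjusted p = 0.0449, adjusted p = 1). Pf4 differed by -0.48 (SE 0.21) and Vwf by -0.19 (SE 0.12). Other markers of the list lay above 0, such as Klf1 at 0.12 (SE 0.10) and Epor at 0.11 (SE 0.11), and the list median was 0.0011. The part of these markers in the results below was not tested. For T and NK cells 5 of 12 markers lay in the dimmest 30%, among them Cd3g, Cd8a and Gzmb. The other T and NK markers did not, with Nkg7 at percentile 85.2 of probe sets and Il7r at 66.9. Of 15 granulocyte and monocyte markers 5 were in the dimmest 30%, among them Ly6g and S100a8, while Mpo stood at percentile 60.2. Macrophage and dendritic markers were dim for 2 of 13, with H2-Ab1 at percentile 82.1 and Cd68 at 80.6. Stem and multipotent progenitor markers were dim for 1 of 11, and 5884 of 22180 genes were dim. Which cells gave these signals was not tested.

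The reception genes of MEP differed little between knockout and wild type. In limma's test with Benjamini-Hochberg adjustment over 41345 probe sets, 0 of the 9 genes passed an adjusted p of 0.05 (0% of all probe sets passed), and each had an adjusted p of 1. At an unadjusted p under 0.05 the count was also 0 of 9, where 1.44% of genes were higher and 1.7% lower in the knockout. Of the 9 differences, 6 were above 0 and 3 below, with a median of 0.04, against a median of -0.00 over all genes. Leaving out knockout replicate 3 moved the median of the 9 to 0.01, leaving out wild-type replicate 1 to 0.02, and leaving out knockout replicate 1 to 0.07. All 9 genes had a 95% interval within 1.5-fold in either direction, as did 93.1% of genes outside the dimmest 30%. The largest difference was that of Stat2.

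**Figure D1:**
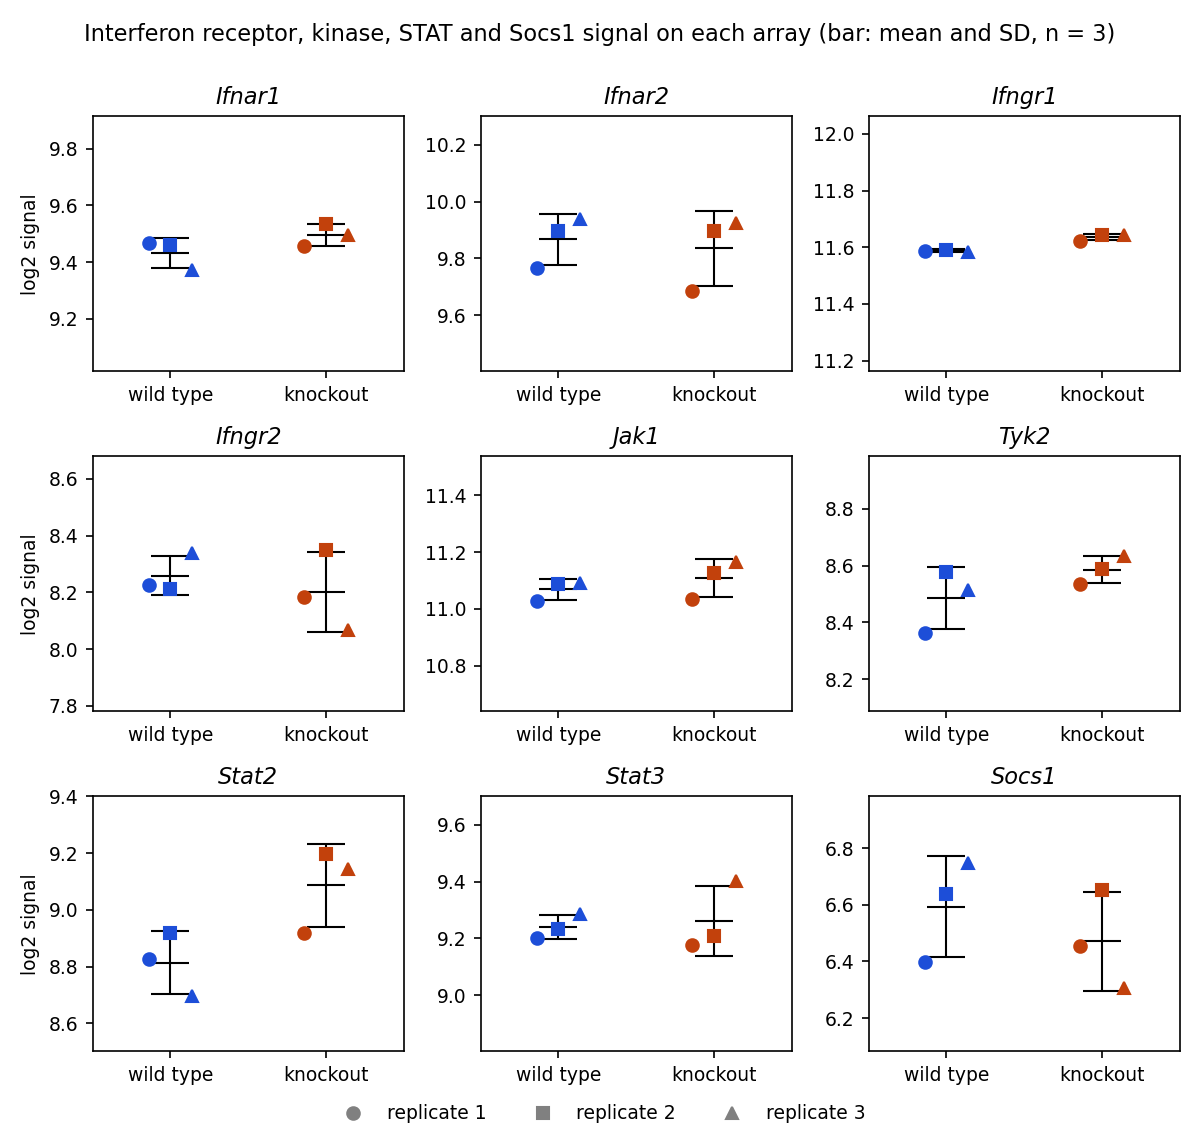
Log2 signal of each gene in wild-type (blue) and knockout (orange) arrays; each point is 1 array, its shape the replicate number, and the bars are the mean and SD of 3 arrays. All panels span the same height, so spreads compare by eye: Ifngr1 is the tightest, and knockout replicates 2 and 3 stand above the other arrays for Stat2.

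Among the type I receptor chains, Ifnar1, the chain that carries Tyk2, read 9.46, 9.53 and 9.50 in knockout replicates 1 to 3. In wild-type replicates 1 to 3 it read 9.47, 9.46 and 9.37. The groups overlapped, with wild-type replicate 3 lowest and knockout replicate 2 highest. The difference was 0.06 (SE 0.09, 95% interval -0.14 to 0.27), and it was 0.03 without wild-type replicate 3.

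Ifnar2, the high-affinity chain that carries Jak1, read 9.68, 9.90 and 9.93 in knockout replicates 1 to 3, against 9.77, 9.90 and 9.94 for wild type in the same order. Replicate 1 was low in both groups, and replicates 2 and 3 of the groups were nearly equal. The difference was -0.03 (SE 0.11, 95% interval -0.29 to 0.23). Its sign turned without knockout replicate 1, to 0.04, and without wild-type replicate 3, to 0.0040.

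Ifngr1 is the chain that binds interferon-gamma. Its knockout values were 11.62, 11.64 and 11.64, and its wild-type values 11.59, 11.59 and 11.58. All 3 knockout values lay above all 3 wild-type values, and it was 1 of 9 genes whose groups did not overlap, where 3.52% of all genes separated upward and 5.18% downward. The difference was only 0.05 (SE 0.08, 95% interval -0.14 to 0.24), a fold of 1.03, and the exact permutation test gave p = 0.1, the smallest that 3 arrays against 3 allow. The pooled SD within groups, 0.0088, was the smallest of 16296 genes outside the dimmest 30%, whose median was 0.12. The difference was 6.76 times the ordinary SE of 0.0072. Limma's SE is larger because it draws the spread of each gene toward the common one. With each array centred on its median, 0 of the 9 genes separated the groups.

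Ifngr2, the chain that carries Jak2, had knockout values of 8.18, 8.35 and 8.07 and wild-type values of 8.23, 8.21 and 8.34. The knockout group held both the highest and the lowest array. The difference was -0.06 (SE 0.11, 95% interval -0.31 to 0.20). Without knockout replicate 3 it was 0.0075, and without the 3 arrays that carried both Xist and Y-linked signal, which leaves 1 knockout array, it was -0.21.

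Ifnar2, Ifnar1 and Ifngr2 stand side by side on chromosome 16 with Il10rb, a chain of the interleukin-10 and interferon-lambda receptors, between Ifnar2 and Ifnar1; the RefSeq table of GRCm38.p6 lists 0 further protein-coding genes between these neighbours. Il10rb had knockout values of 9.13, 9.15 and 9.20 and wild-type values of 9.12, 9.15 and 9.16. Its difference was 0.02 (SE 0.08). Over the arrays the adjacent Ifnar1 and Ifngr2 correlated at r = -0.24, Ifnar1 and Ifnar2 at -0.06, and Ifnar2 and Ifngr2, the ends of the row, at 0.19. These r values are descriptions over 6 arrays.

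Jak1, the kinase shared by both receptors, had knockout values of 11.03, 11.13 and 11.16 and wild-type values of 11.03, 11.09 and 11.09. Replicate 1 was again lowest in both groups, and the groups overlapped. The difference was 0.04 (SE 0.09, 95% interval -0.17 to 0.25), and it was 0.01 without knockout replicate 3.

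Tyk2, the kinase of the type I receptor, read 8.54, 8.59 and 8.63 in knockout arrays. It read 8.36, 8.58 and 8.51 in wild-type arrays, where replicate 1 stood lowest. The ranges overlapped through wild-type replicate 2, and the difference was 0.10 (SE 0.10, 95% interval -0.13 to 0.33). Without wild-type replicate 1 it was 0.04. After a further quantile normalization the groups also separated for Tyk2 and Stat2, which made 3 of the 9 genes with Ifngr1, where 10.2% of all genes separated in either direction.

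Stat2, a subunit of ISGF3 and itself an interferon-stimulated gene, had the largest difference. Its knockout values were 8.92, 9.20 and 9.15 (9.09 ± 0.15), and its wild-type values 8.83, 8.92 and 8.70 (8.81 ± 0.11). Knockout replicate 1, at 8.919, lay just under wild-type replicate 2, at 8.920, and the other knockout arrays lay above all wild-type arrays. The difference was 0.27 (SE 0.12, 95% interval -0.00 to 0.55), a fold of 1.21. It missed the unadjusted threshold (limma p = 0.0516, adjusted p = 1), and the exact permutation test gave p = 0.2. Of all genes, 3.22% had a p as small. Among the 15 alternatives, those that drop probe sets, limma-trend and the replicate block leave a difference unchanged and cannot turn its direction. Stat2 was higher in the knockout in all 15, by 0.21 to 0.36. Its unadjusted p fell under 0.05 in 6 of them, and its adjusted p stayed between 0.655 and 1.

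B cell markers had a mean level of 6.57 to 7.12 in knockout and 6.32 to 6.78 in wild-type arrays, ranges that overlap. None of the 9 measured markers had an unadjusted p under 0.05 in limma's test, and 0 passed after adjustment; Ms4a1 and Vpreb1 were dim. Their median difference was 0.16, from -0.07 for Cd22 and -0.01 for Cd79b to 0.56 for Cd79a and 0.64 for Ighm. For replicates 1 to 3 the list means were 6.90, 6.57 and 7.12 in knockout arrays and 6.78, 6.32 and 6.74 in wild-type arrays. Each knockout mean lay above the wild-type mean of the same number, as for Stat2. The highest and lowest arrays of the list, knockout replicate 3 and wild-type replicate 2, were not those of Stat2. The part of B cell markers in the Stat2 difference was not tested. In RNA of a sorted population, fewer cells of a type and less RNA per cell cannot be told apart.

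Stat3, a factor of interleukin-6 and other gp130 cytokines that type I interferon can also activate, read 9.18, 9.21 and 9.40 in knockout arrays. In wild-type arrays it read 9.20, 9.23 and 9.29, inside the knockout range. The difference was 0.02 (SE 0.10, 95% interval -0.21 to 0.26). Without knockout replicate 3 it was -0.05; without the 3 arrays that carried both Xist and Y-linked signal, where that array is the only knockout, it was 0.14. Stat3 lies on chromosome 11, as Tbx21 does, with 152 protein-coding genes between them in the RefSeq table and Stat5a as its neighbour.

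Socs1, the inhibitor that binds the Janus kinases, had the widest spread within groups of the 9. Its knockout values were 6.45, 6.65 and 6.31 (6.47 ± 0.17), and its wild-type values 6.40, 6.64 and 6.75 (6.59 ± 0.18). The groups overlapped almost fully, with knockout replicate 3 lowest and wild-type replicate 3 highest. The difference was -0.12 (SE 0.14, 95% interval -0.45 to 0.21), and it was -0.04 without knockout replicate 3. Without the 3 arrays that carried both Xist and Y-linked signal it was -0.39, with knockout replicate 3 as the only knockout array.

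**Figure D2:**
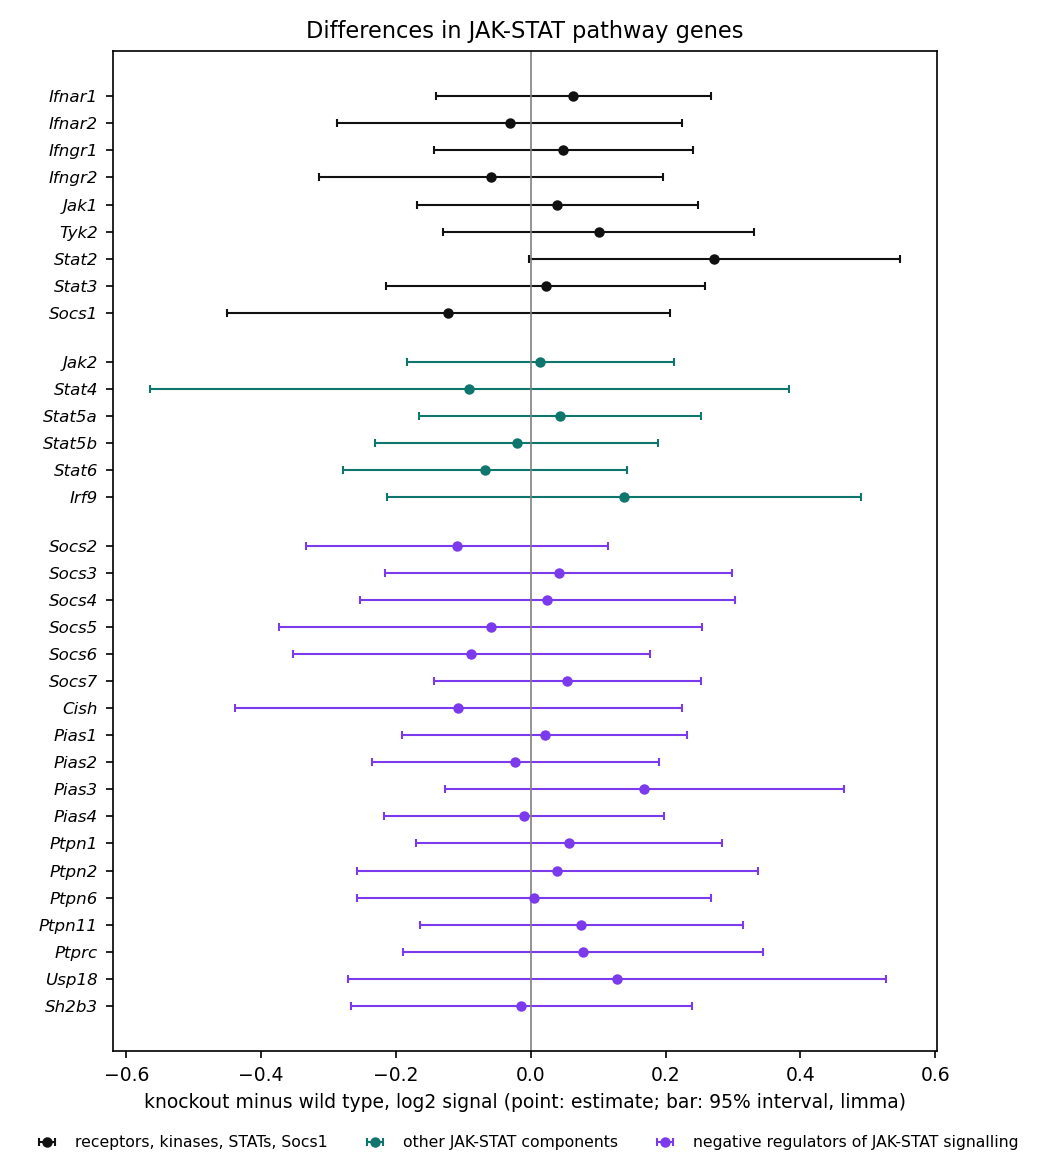
Knockout minus wild type in log2 signal for the 9 genes (black), other JAK-STAT components (green) and negative regulators (violet); points are limma estimates and bars 95% intervals from 3 arrays against 3. Every interval drawn includes 0, and that of Stat2 begins at -0.00.

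The 250 bases before the RefSeq start of Stat2 and Socs1 are given, 5′ to 3′ along the gene. Capitals mark letter matches to the ISRE core, and whether they act as such elements was not tested. In GRCm38.p6 Stat2 is at chr10:128270248-128270497 on the + strand and Socs1 at chr16:10785537-10785786 on the - strand.
Stat2: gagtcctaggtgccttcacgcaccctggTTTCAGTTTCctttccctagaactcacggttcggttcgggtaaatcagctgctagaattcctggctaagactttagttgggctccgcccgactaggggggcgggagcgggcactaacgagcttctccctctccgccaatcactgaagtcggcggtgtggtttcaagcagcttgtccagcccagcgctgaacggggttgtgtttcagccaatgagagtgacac
Socs1: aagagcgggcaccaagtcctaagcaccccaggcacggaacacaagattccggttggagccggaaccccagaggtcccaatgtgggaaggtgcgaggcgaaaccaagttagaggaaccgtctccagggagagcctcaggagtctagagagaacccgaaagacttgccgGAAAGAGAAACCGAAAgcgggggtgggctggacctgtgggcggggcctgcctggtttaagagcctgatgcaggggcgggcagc

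The ISRE core was searched as GAAANNGAAA on both strands of windows from 250 bases before to 50 bases after each start. It was found in the windows of 2 of the 9 genes, Stat2 and Socs1, and in 3.44% of 32851 windows of that length. In Stat2 the match lies on the opposite strand as GAAACTGAAA, at positions -222 to -213 from the start. In Socs1 a pair of overlapping matches, GAAAGAGAAA and GAAACCGAAA, lies between positions -83 and -68. The GAS core, searched as TTCNNNGAA, was found in 2 of the 9 windows and in 8.30% of all. Ifnar2 held TTCCTGGAA, at positions -214 to -206, and Ifnar1 held TTCACGGAA across the start. A T-box half-site, searched as TCACACC on both strands, was in 0 of the 9 windows and in 3.98% of all. These are matches of letters in short windows, and binding was not measured.

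Several of the genes kept the same order of arrays in both groups. Replicate 1 was lowest in both groups for 4 of the 9 genes (Ifnar2, Jak1, Tyk2 and Stat3), and for 29.1% of genes outside the dimmest 30%. Replicate 3 was highest in both for Ifnar2, Jak1 and Stat3, against 14.4% of those genes. Between arrays of the same number, 4 of the 9 genes were higher in the knockout in all 3 numbers, where 12.4% of all genes were, and 0 of the 9 were lower in all 3, where 14.2% were. These were Ifngr1, Jak1, Tyk2 and Stat2. For Stat2 the differences were 0.09, 0.28 and 0.45 for numbers 1, 2 and 3. For Tyk2 they were 0.17, 0.01 and 0.12. For Ifngr1 they were 0.03, 0.05 and 0.06, and for Jak1 0.01, 0.04 and 0.07. The genes share these 6 arrays and are not independent of each other.

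**Figure D3:**
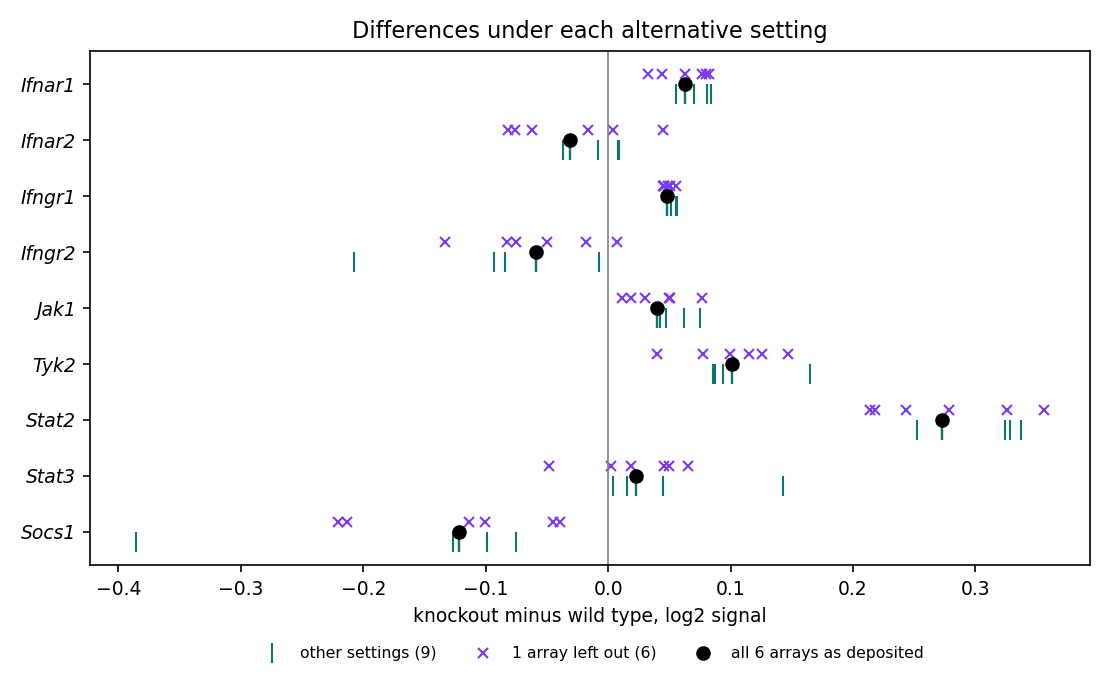
Knockout minus wild type in log2 signal for each gene with all 6 arrays as deposited (black), with 1 array left out (crosses) and under the other 9 settings (green ticks). Stat2 lies between 0.21 and 0.36 in every alternative, and Ifnar2, Ifngr2 and Stat3 reach both sides of 0.

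Over the 6 arrays Stat2 varied most like Ifngr1 (r = 0.92) and Ifnar1 (r = 0.92) among the 9. Ifngr2 varied most like Socs1 (r = 0.85), and Ifnar2 most like Jak1 (r = 0.81). Such values are common with 6 arrays: 96 other genes followed Stat2 at least as closely as Ifngr1 did, and 2116 followed Ifnar2 at least as closely as Jak1 did. The 2 closest genes were Commd9 and Snapc4 for Stat2 (r = 0.995 and 0.992), Trim33 and Baz1b for Ifnar1 (0.993 and 0.989), and Smim15 and Ube2e3 for Ifnar2 (both 0.998). They were Olfr113 and Rnf17 for Ifngr1 (0.992 and 0.991), Ube2d2b and Fbln2 for Ifngr2 (0.984 and 0.979), and Napa and Arfip1 for Jak1 (0.996 and 0.995). For Tyk2 they were Tcp11l2 and Pon3 (0.993 and 0.991), for Stat3 Scd1 and Mtmr3 (0.994 and 0.988), and for Socs1 Grid1 and Amh (0.997 and 0.992). They were picked from 16295 genes on the same 6 arrays.

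Among the other transducers, 0 of 6 measured genes passed limma's adjusted threshold and 0 had an unadjusted p under 0.05. Irf9, the DNA-binding subunit of ISGF3, had knockout values of 9.11, 9.53 and 9.30 and wild-type values of 9.25, 9.30 and 8.97. Its highest and lowest arrays were those of Stat2, and over the 6 arrays they correlated at r = 0.84. The difference in Irf9 was 0.14 (SE 0.15). Stat6, the factor of interleukin-4, differed by -0.07 (SE 0.09). Stat5a, the neighbour of Stat3, differed by 0.04, and Jak2 by 0.01.

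Of 18 negative regulators of the pathway, 11 had a difference above 0 and 7 below, with a median of 0.02. Leaving out knockout replicate 1 moved that median to 0.07, and it was just below 0 with knockout replicate 2 left out (-0.0075), with knockout replicate 3 left out (-0.0016) and with wild-type replicate 1 left out (-0.0020). None of the 18 passed limma's adjusted threshold, and 0 had an unadjusted p under 0.05. Pias3, an inhibitor of Stat3, differed by 0.17 (SE 0.12), Socs2 by -0.11 (SE 0.09) and Socs6 by -0.09 (SE 0.11). Among 12 further chains of the class II cytokine and gp130 receptor families, 2 had a difference above 0 and 10 below, with a median of -0.07. In limma's test 0 passed the adjusted threshold and 2 had an unadjusted p under 0.05, both lower, where 1.7% of all genes were. Il20rb, a chain for interleukins of the IL-10 family, read 6.41 to 6.55 in knockout and 6.70 to 6.83 in wild-type arrays (-0.24, SE 0.09, limma adjusted p = 1). Il22ra2, a soluble binding protein for interleukin-22, differed by -0.36 (SE 0.15) at dim signal. Ifnlr1, the interferon-lambda chain, differed by -0.17 (SE 0.12).

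Of 19 measured interferon genes, 10 lay in the dimmest 30%, and 0 had an unadjusted p under 0.05 in limma's test, also 0 after adjustment. Of these, 5 were above 0 and 14 below, with a median of -0.06 that ran from -0.12 without knockout replicate 1 to -0.01 without knockout replicate 3. At dim signal Ifna12 differed by -0.24 (SE 0.12) and Ifnk by -0.14 (SE 0.08), and Ifna7, not dim, differed by -0.19 (SE 0.12). The Ifna genes are near-identical copies, and whether a probe set reads its neighbours was not tested. Ifng, a gene that T-bet switches on in T cells, read 5.68 to 6.01 in knockout and 5.89 to 6.14 in wild-type arrays.

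Downstream of the type I receptor, 22 of 28 target genes had a difference above 0 and 6 below, with a median of 0.09, where 48.2% of all genes were above 0. None of the 28 passed limma's adjusted threshold or an unadjusted p of 0.05. Oasl1, an antiviral gene of the oligoadenylate synthetase family, had knockout values of 8.43, 8.68 and 8.49 and wild-type values of 8.33, 8.44 and 8.21. Its difference was 0.21 (SE 0.11). The antiviral gene Rsad2 differed by 0.23 (SE 0.13) and was the 1 gene of the 28 whose groups did not overlap upward, where 3.52% of all genes did. The antiviral gene Mx2 differed by 0.18 (SE 0.13). The median was 0.03 without knockout replicate 2 and also 0.03 without wild-type replicate 3. Knockout replicate 2 held the highest value for 16 of the 28 genes, 57.1% against 13.4% of genes outside the dimmest 30%. Wild-type replicate 3 held the lowest for 19 of the 28, 67.9% against 11.5%. Stat2 was highest and lowest on the same arrays. Its r with the 28 genes over the arrays had a median of 0.69, against 0.04 over all genes outside the dimmest 30%.

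**Figure D4:**
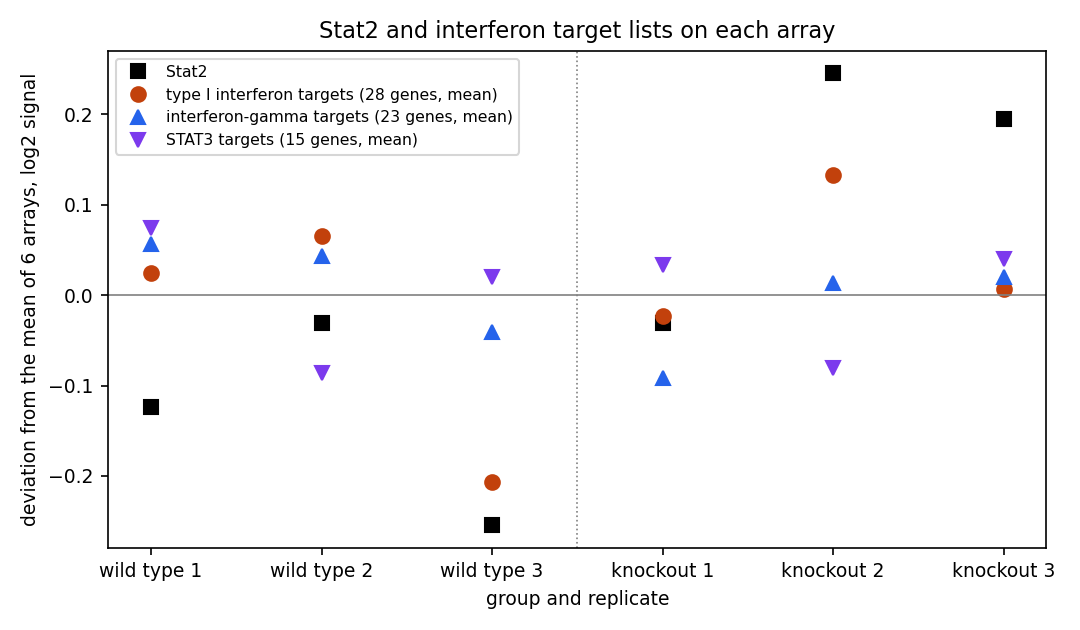
Deviation from the mean of the 6 arrays, in log2 signal, for Stat2 (squares) and for the mean of each target list, array by array. The type I target list lies at -0.21 on wild-type replicate 3 and 0.13 on knockout replicate 2, where Stat2 is lowest and highest.

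Of 23 measured targets of interferon-gamma 7 had a difference above 0 and 16 below, with a median of -0.04, where 48.2% of all genes were above 0. The median was 0.02 without the 3 arrays that carried both Xist and Y-linked signal, and the difference from the type I list was not tested. None passed limma's adjusted threshold and 2 had an unadjusted p under 0.05, both lower, where 1.7% of all genes were. These were the chemokine genes Cxcl9, at dim signal, at -0.29 (SE 0.11), and Cxcl10 at -0.26 (SE 0.11). The GTPase gene Iigp1 differed by 0.36 (SE 0.25), with wild-type replicate 3 lowest at 5.46. The highest values of this list were spread over the arrays, with 4 genes highest on knockout replicate 2. The lowest values lay on knockout replicates 1, 2 and 3 for 9, 6 and 4 genes (39.1%, 26.1% and 17.4%). Of genes outside the dimmest 30%, 26.7%, 14.7% and 18.2% were lowest on those arrays. Wild-type replicate 3 was lowest for 4 genes, and wild-type replicates 1 and 2 for 0. Of 15 targets of Stat3, 8 were above 0 and 7 below, with a median of 0.03 and 0 at an unadjusted p under 0.05 or past limma's adjusted threshold. Lrg1 differed by -0.20 (SE 0.12), Fgl1, at dim signal, by -0.11 (SE 0.11) and Junb by -0.16 (SE 0.16). The sign of the STAT3 target median turned when single arrays were removed: removing wild-type replicate 2 gave -0.08, removing knockout replicate 1 gave -0.05, removing wild-type replicate 3 gave -0.0069 and removing knockout replicate 3 gave -0.0042. Socs3 belongs both to these targets and to the negative regulators.

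**Figure D5:**
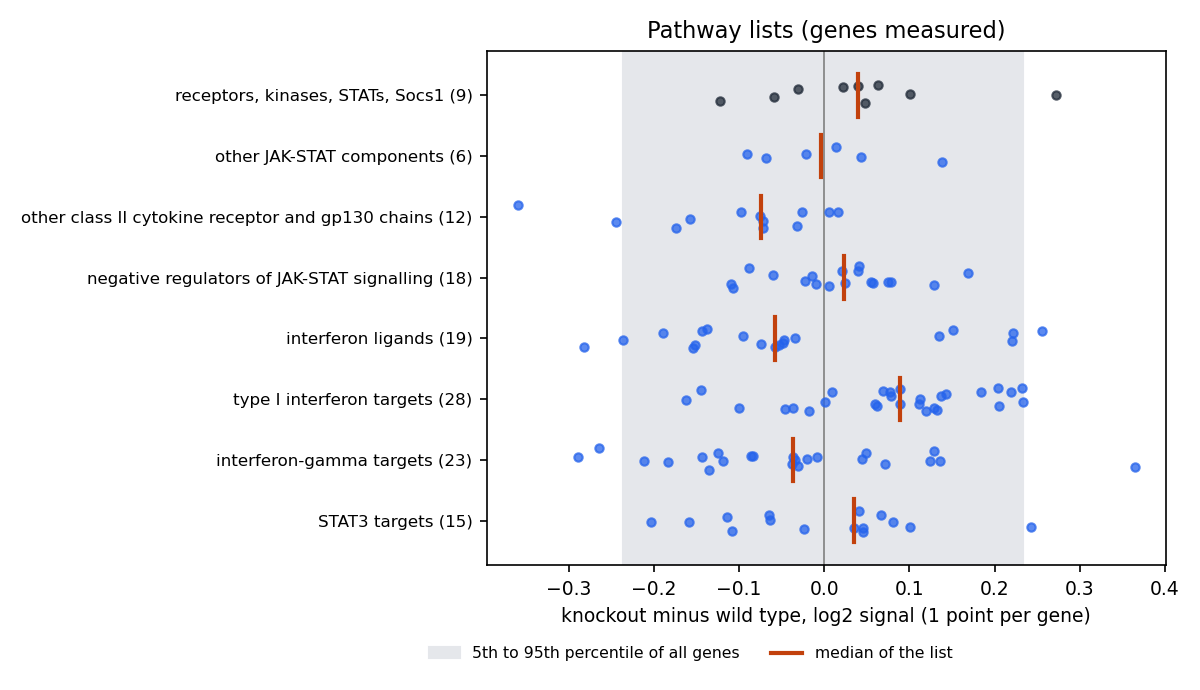
Knockout minus wild type in log2 signal, 1 point per gene, for the 9 genes and 7 pathway lists; the grey band spans the 5th to 95th percentile of all genes, -0.24 to 0.23. Stat2 is the point of the top row beyond the band, and the type I target list has the highest median, 0.09.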

How the data were processed

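The authors deposited 1 log2 signal per probe set and array, and the submitters' processing notes name Affymetrix Expression Console 1.4.1.46; they do not state the background correction, normalization or summarisation. The log base was inferred: the highest value, 14.2, exceeds 11.1, the natural log of a 16-bit scanner's maximum. Detection calls were not used here. Of 41345 probe sets, 23521 had 1 gene symbol in the array annotation, 1814 had several and 16010 had none; 23328 symbols were brought up to date through their gene ID. For each gene the probe set with the highest mean was used, and each of the 9 members had 1 probe set. Groups and replicate numbers came from the sample titles.

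Differences were fitted with limma 3.58.1 in R 4.3.3 (lmFit, eBayes, 2 groups, no covariate) over all probe sets. Adjustment was by Benjamini-Hochberg, with a threshold of 0.05. The fit was tested on simulated data with independent noise for each value. Correlation between same-numbered arrays was not simulated, so that test cannot speak to it. Permutation tests were exact and 2-sided. Members, lists, motifs and alternatives were chosen with earlier results of these data known. Genes were named by rule: all members, the 3 genes of smallest p per list (2 for a list under 10 genes), the 2 genes most correlated with each member (predicted genes and Riken clones skipped), Tbx21 and Il10rb; any other gene was picked with its values known. Dim means a mean in the lowest 30%. Promoter windows are RefSeq's (GRCm38.p6).

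Deviations from the group means of same-numbered arrays correlated at 0.285, 0.116 and 0.115 for numbers 1, 2 and 3 over 22180 genes, above the criterion of 0.1 for pairing. The reported fit has no block; the blocked fit is an alternative. Over all probe sets numbers 1 and 3 gave 0.212 and 0.140, and number 2 gave 0.0569, below the criterion. Over genes outside the dimmest 30% the values for numbers 1, 2 and 3 were 0.396, 0.211 and 0.183. The labels do not say what a number shares.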

Additional observations from a re-analysis of the deposited data

How the results depend on the processing

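Across 15 alternatives 0 of the 9 genes passed limma's adjusted p of 0.05. The count of genes with an unadjusted p under 0.05 was 1, Stat2, after a further quantile normalization, without dim probe sets, with named probe sets only, with array weights and with limma-trend. It was 0 to 1 when 1 array was left out, and 1 only without knockout replicate 1. The fit with the replicate number as a block gave 0 and changed no call; its Stat2 difference was 0.27. Ifnar1, Ifngr1, Jak1, Tyk2, Stat2 and Socs1 kept their direction in all 15. Dropping probe sets, limma-trend and the replicate block cannot change a direction here, so only the other settings could have turned it. Ifnar2 turned when the sex-linked signal class was blocked (0.0090) and without the 3 arrays that carried both Xist and Y-linked signal (0.0079). Leaving out 1 array gave -0.082 to 0.045 for Ifnar2, -0.13 to 0.0075 for Ifngr2 and -0.048 to 0.065 for Stat3; the cause was not tested. Genes whose groups did not overlap numbered 3 after quantile normalization and 0 with each array centred on its median. Of all probe sets, 1 passed the adjusted threshold with centred arrays, 1 with array weights and 2 without knockout replicate 3; over single arrays left out the count was 0 to 2. No scaling moved the median of all probe sets by 0.1. A mean over several probe sets could not be tried, since each gene had 1. Signal over background is unknown here, which limits what dim probe sets can show.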
